A study of Homo sapiens with 24 samples.

Results

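The genes described here are 47 genes of mitosis and the spindle, chosen by a named list, out of 19775 genes on an Affymetrix HG-U133 Plus 2.0 expression array. Where a gene had several probe sets, the probe set with the highest mean over the 24 arrays stood for it. The 47 genes have 92 probe sets between them, and 24 have a single one. All 47 passed the filter on dim genes in each cell line, so no member is missing from any comparison. The filter kept 12840 genes in VCaP and 12823 in LNCaP, and a gene passed it with an intensity above the array's own median in 3 or more of a line's 12 arrays.

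The study compared androgen-dependent human prostate cancer cell lines after silencing of an ETS transcription factor. VCaP cells, which carry the TMPRSS2-ERG gene fusion, received siERG or siControl, and LNCaP cells, which carry a rearranged ETV1 gene, received shETV1 or shControl. From 24 h after the RNA interference, all cells of all 8 groups were kept without hormone for 2 days, and then given ethanol vehicle (EtOH) or the androgen dihydrotestosterone (DHT) at 10 nM for 16 h. Each group has 3 biological replicates, labelled A, B and C, with 1 array each. The groups are VCaP siControl EtOH, VCaP siERG EtOH, VCaP siControl DHT, VCaP siERG DHT, LNCaP shControl EtOH, LNCaP shETV1 EtOH, LNCaP shControl DHT and LNCaP shETV1 DHT. Line, target and kind of RNA interference change together between VCaP and LNCaP, so a difference between the lines cannot be assigned to any of them. Every DHT response is a response of cells that were first deprived of hormone.

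Cyclin B and CDK1 drive cells into mitosis, and Polo-like, Aurora and NEK kinases mature the centrosomes and build the spindle. Kinetochores, assembled on centromeric chromatin marked by CENPA, hold the chromosomes on spindle microtubules through the Ndc80 complex, while the spindle checkpoint withholds anaphase until every chromosome is attached. The anaphase-promoting complex with CDC20 then destroys securin and cyclin B. Most of these genes are transcribed in G2 and M phase through promoter elements called CHR (cell cycle genes homology region) and CCAAT box, read by the MuvB complex with MYBL2 and FOXM1 and by NF-Y. In prostate cancer cells these genes serve as a readout of proliferation, and androgen can raise or lower proliferation depending on its dose and the line. In RNA from a whole culture, fewer cells in mitosis and less of a transcript in each cell cannot be told apart.

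Promoter letters from RefSeq (build GRCh38.p14) are shown for 4 of the members with the largest called DHT change in control cells. CENPN, a protein that binds CENPA nucleosomes, is the member that rose. CCNB2 (cyclin B2), BUB1B (the checkpoint kinase BubR1) and SPC24 (a subunit of the Ndc80 complex) fell in control cells of both lines. Each window of 280 bases runs 5′ to 3′ on the gene's strand from 250 bases before the annotated start to 30 bases past it. It is chr16:81006964-81007243 (plus strand) for CENPN and chr15:59104896-59105175 (plus strand) for CCNB2. For BUB1B it is chr15:40160819-40161098 (plus strand), and for SPC24 chr19:11155753-11156032 (minus strand). Capitals mark the letters of the CHR (TTTGAA or TTCGAA) and of the CCAAT box (CCAAT), searched on either strand, so ATTGG is a CCAAT box on the other strand.
CENPN: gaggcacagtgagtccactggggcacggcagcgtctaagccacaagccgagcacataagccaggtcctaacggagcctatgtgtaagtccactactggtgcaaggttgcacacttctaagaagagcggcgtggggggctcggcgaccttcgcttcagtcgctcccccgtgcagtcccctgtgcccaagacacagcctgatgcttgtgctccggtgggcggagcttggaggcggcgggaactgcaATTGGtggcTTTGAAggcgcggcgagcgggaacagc
CCNB2: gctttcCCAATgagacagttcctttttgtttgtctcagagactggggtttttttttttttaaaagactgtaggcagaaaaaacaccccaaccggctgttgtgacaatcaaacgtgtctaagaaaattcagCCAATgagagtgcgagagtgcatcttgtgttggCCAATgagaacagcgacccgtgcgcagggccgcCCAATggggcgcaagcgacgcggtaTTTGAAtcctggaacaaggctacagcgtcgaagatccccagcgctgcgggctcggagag
BUB1B: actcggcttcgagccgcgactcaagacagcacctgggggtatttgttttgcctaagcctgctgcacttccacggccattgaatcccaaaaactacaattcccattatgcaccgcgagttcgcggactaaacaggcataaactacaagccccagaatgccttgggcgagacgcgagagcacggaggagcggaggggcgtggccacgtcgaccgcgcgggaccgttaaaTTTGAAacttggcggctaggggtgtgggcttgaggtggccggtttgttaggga
SPC24: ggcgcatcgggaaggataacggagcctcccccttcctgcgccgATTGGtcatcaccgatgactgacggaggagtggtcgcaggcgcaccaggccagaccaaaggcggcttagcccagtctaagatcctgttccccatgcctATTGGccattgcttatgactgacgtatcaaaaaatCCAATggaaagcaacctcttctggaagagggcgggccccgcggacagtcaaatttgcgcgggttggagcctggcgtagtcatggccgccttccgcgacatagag
CCNB2 holds 4 CCAAT boxes and 1 CHR, the usual arrangement of a G2 and M gene. BUB1B holds 1 CHR and no CCAAT letters, SPC24 3 CCAAT boxes and no CHR letters, and CENPN 1 of each next to its start. Over the full 300-base windows the RefSeq table held 44 promoters for 39 of the 47 members. CHR letters stood in 29 of the 44, or 65.9%, against 16.4% of all 35116 promoters of that length. CCAAT letters stood in 33, or 75.0%, against 34.6%, and both together in 22, or 50%, against 6.4%. The ETS letters CCGGAAGT stood in 4 (DLGAP5, KIF14, KIF23 and NCAPG), or 9.1% against 4.1%. A match is a description of letters and not of a bound site.

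The arrays matched their labels for the silenced genes and the hormone. Under EtOH, VCaP siControl arrays had a mean ERG intensity of 1031 ± 82.3 (SD, n = 3) and siERG arrays one of 576.2 ± 13.5. Under DHT these were 1188 ± 24.9 and 548.4 ± 17.5. Mean ETV1 intensity under EtOH was 1149 ± 103 for LNCaP shControl and 745.1 ± 28.5 for shETV1. Under DHT it was 1294 ± 31 and 834.7 ± 49.6. Silencing was thus partial at the RNA level. KLK3 (prostate-specific antigen) rose with DHT by 0.61 and 0.54 (log2) in VCaP siControl and siERG, and by 2.47 and 3.28 in LNCaP shControl and shETV1. The 6 luminal prostate markers analysed were tested in each line, while PTPRC and CD14 of leukocytes and CDH5 and KDR of endothelium were too dim to be tested. Of 5 fibroblast markers, 3 were tested in VCaP and 5 in LNCaP, with COL1A1 above the array median on all 12 arrays of each line. PECAM1 and VWF of endothelium and CD3E of leukocytes were tested in both lines, and LYZ in VCaP. The summed leukocyte markers were lower in siERG than in siControl VCaP cells, at 219 to 319 against 451 to 516 with EtOH and 269 to 314 against 509 to 552 with DHT, a sum carried by LYZ. In LNCaP the fibroblast sum was lower with DHT, at 451 to 493 against 588 to 606 in shControl and 422 to 490 against 571 to 625 in shETV1 cells. So was the endothelial sum, at 111 to 119 against 167 to 210 and 111 to 137 against 210 to 237. In VCaP siControl cells the fibroblast sum was 401 to 445 with EtOH and 341 to 530 with DHT, and the endothelial sum 156 to 193 and 101 to 155. The part of these markers in the results was not tested.

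VCaP siControl DHT array A stands furthest apart from its group for these genes. Its members sat at a median of -0.269 (log2) from the mean of the line, against -0.051 and -0.105 in arrays B and C, and 43 of the 47 members were lowest there among the 3. That array also had the lowest median intensity of the VCaP arrays, 47.57 of a range up to 53.25. Its GAPDH 3′ to 5′ ratio, a measure of RNA integrity, was 1.067, against 1.08 and 1.065 in arrays B and C. Its ACTB 3′ to 5′ ratio was 3.564, the highest of the VCaP arrays, against 3.466 and 3.465. Other arrays were uneven too: VCaP siControl EtOH array B was lowest for 34 members and siControl DHT array B highest for 35. LNCaP shControl EtOH array A was highest for 29. The part of these measures in the results was not tested. The main counts that rest on VCaP siControl DHT array A are given with and without it.

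**Figure D1:**
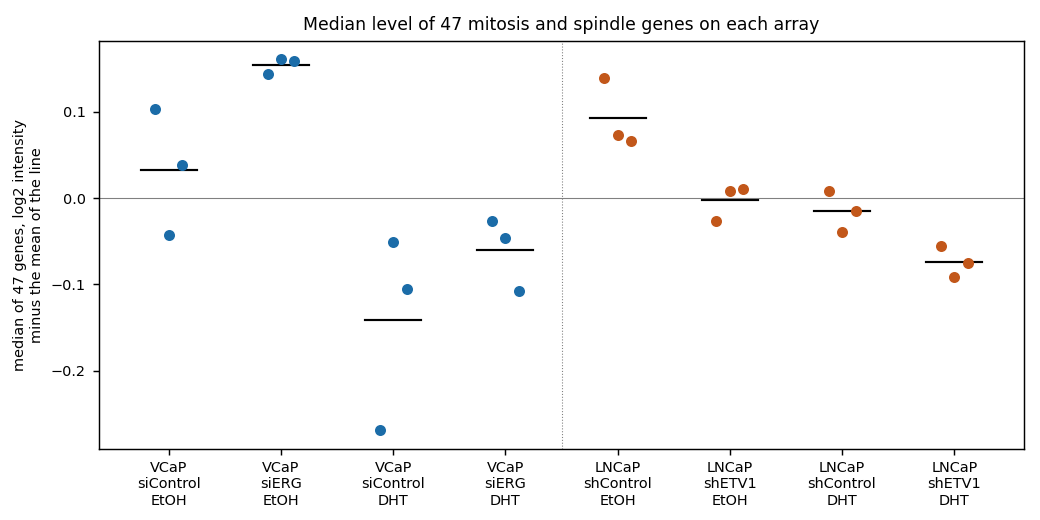
Each point is an array, placed at the median over the 47 members of the log2 intensity minus the gene's mean in that cell line (y axis, log2); the 8 groups are on the x axis and the short lines are group means. VCaP siERG EtOH arrays sit at 0.144 to 0.161, above all other VCaP arrays, and VCaP siControl DHT array A sits lowest at -0.269.

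DHT moved more of these genes than silencing did in either line. In VCaP siControl cells, 15 members fell and CENPN rose with DHT, at an adjusted p under 0.05 (limma, Benjamini-Hochberg over all genes tested). Likewise, 15 members fell in LNCaP shControl cells and CENPN rose. The falls were small, with log2 changes of -0.59 to -0.14 in VCaP and -0.29 to -0.15 in LNCaP, while CENPN rose by 0.73 in VCaP and 2.07 in LNCaP. Only BUB1B and TPX2 fell in all 4 DHT comparisons, and 11 members, MKI67, FOXM1, CDC20, UBE2C and CCNA2 among them, passed in none. Without VCaP siControl DHT array A, no member fell in all 4, as BUB1B and TPX2 missed the threshold in siControl cells.

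These counts have to be read against a hormone response that moved much of the array. In VCaP siControl cells 45.0% of the genes tested changed with DHT, and 25.4% fell against 31.9% of the members, a share near the background. Of all genes in LNCaP shControl cells 40.8% changed and 22.3% fell, against 31.9% of the members. In VCaP siERG cells 45.3% changed and 25.2% fell, against 48.9% of the members, 23 in number. In LNCaP shETV1 cells 37.9% changed and 19.0% fell, against 17.0% of the members, 8 in number. The share of members that rose was below the background in VCaP siControl cells, 2.13% against 19.6%.

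The direction of the members was less even than that of all genes. Their median change with DHT was -0.165 in VCaP siControl cells, where 41 of 47 lay below 0 and the median over all genes was -0.027. It was -0.205 in VCaP siERG cells (44 below 0, all genes -0.025), -0.103 in LNCaP shControl cells (42 below 0, all genes -0.015) and -0.073 in LNCaP shETV1 cells (35 below 0, all genes -0.003). Of all genes, 54.3%, 53.6%, 52.6% and 50.6% lay below 0 in these comparisons. The median over the members stayed below 0 when each array was centred on its own median, at -0.138, -0.133, -0.065 and -0.073 in the same order. Centring moved the split of all genes in VCaP siERG cells from 2576 risen and 3238 fallen to 3436 and 2450, and the members there to 1 risen and 11 fallen.

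Without VCaP siControl DHT array A, 8 of the 16 calls in VCaP siControl cells stayed, with a member median of -0.095, and 7 members fell where 2853 of 12840 genes did. CENPN (0.75), TTK (-0.47), SPC24 (-0.52), CCNB2 (-0.45), CDK1 (-0.33), MAD2L1 (-0.32), HJURP (-0.32) and TOP2A (-0.22) stayed past the threshold. These 8 were also the calls that stayed when any other of the 12 VCaP arrays was left out. The 8 that were lost were AURKA (adjusted p 0.07), BUB1 (0.127), BUB1B (0.0614), CENPF (0.179), TPX2 (0.0971), PRC1 (0.0742), ECT2 (0.0558) and SMC4 (0.0993). For BUB1B the change without the array was -0.19 ± 0.07 (SE), and with it -0.26 ± 0.08. The 16 calls in LNCaP shControl cells became 7 without shControl EtOH array A, 9 without shControl EtOH array C and 8 without shControl DHT array B. There CCNB2, NEK2, BUB1B, NUF2, SPC24 and CENPN stayed whichever array was left out. In VCaP siERG cells the 24 calls became 15 without siERG EtOH array C, and 13 stayed whichever array was left out: CDK1, CCNB1, CCNB2, AURKA, BUB1B, MAD2L1, TTK, NDC80, SPC24, HJURP, CENPN, ECT2 and TOP2A. In LNCaP shETV1 cells 6 of 12 did: PLK1, BUB1B, HJURP, CENPN, KIF2C and MYBL2.

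**Figure D2:**
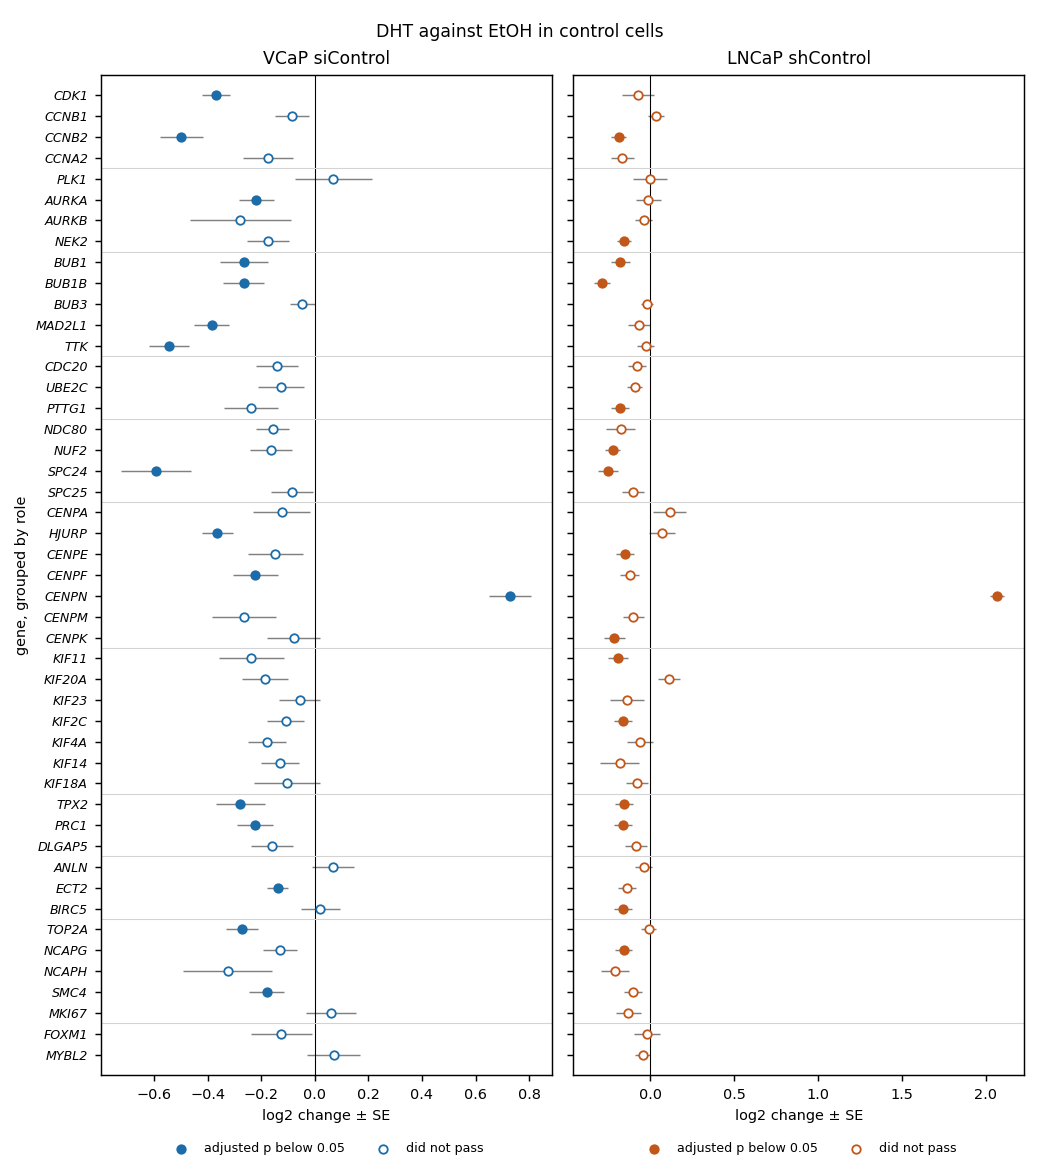
Change with DHT in control cells for each of the 47 members (y axis, ordered by role with grey lines between roles) as a log2 difference on the x axis, VCaP siControl on the left and LNCaP shControl on the right; bars are ± SE, filled points have an adjusted p under 0.05 and the panels differ in x scale. Most points lie to the left of 0, and CENPN is the only filled point to the right, at 0.73 and 2.07.

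Among the cyclins and their kinase, CCNB2 fell in control cells of both lines. Its intensity was 1953, 1708 and 2022 in VCaP siControl EtOH arrays A to C, and 1252, 1395 and 1354 with DHT. LNCaP shControl arrays read 1854, 1787 and 1796 with EtOH, and 1688, 1564 and 1515 with DHT. Every DHT array lay below every EtOH array in each line. The change was -0.50 ± 0.08 (SE; adjusted p = 0.000446, as in all such parentheses that follow) in VCaP and -0.19 ± 0.05 (0.00663) in LNCaP. It was -0.38 ± 0.08 (0.00264) in siERG cells and -0.12 ± 0.05 (0.069) in shETV1 cells. CCNB2's other probe sets are dim, with mean intensities of 22.72 and 13.04. When the probe sets of a gene were averaged, the CCNB2 call was lost in VCaP siControl cells (0.127) and LNCaP shControl cells (0.843), and in siERG cells its sign turned.

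CDK1, the mitotic kinase itself, fell in VCaP cells. Its intensity was 4179, 3955 and 3848 in siControl EtOH and 2922, 3136 and 3216 in siControl DHT. With siERG it was 4440, 4268 and 4160 with EtOH and 3182, 3041 and 3240 with DHT. The groups did not overlap. The change was -0.37 ± 0.05 (0.000192) in siControl and -0.44 ± 0.05 (5.24e-05) in siERG cells, and CDK1's other bright probe sets gave -0.317 and -0.303 in siControl cells. In LNCaP the shControl arrays read 3551, 3967 and 3073 with EtOH and 3615, 3548 and 2911 with DHT, overlapping groups, and the change was -0.07 with a 95% interval of -0.28 to 0.14.

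CCNB1 (cyclin B1) passed only in VCaP siERG cells, at -0.22 ± 0.06 (0.0145). In the other DHT comparisons it read -0.09, 0.03 and 0.01. CCNA2 (cyclin A2), which acts from S phase into mitosis, passed in none of the 4, with changes from -0.17 to -0.13. In VCaP siControl cells its 95% interval ran from -0.38 to 0.03. CCNA2's other probe set, with a mean intensity of 571.9, read -0.142 and -0.156 in VCaP siControl and siERG cells. In LNCaP shControl and shETV1 cells it read 0.013 and 0.043, on the other side of 0.

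The mitotic kinases had 1 fall of 4 in control cells of each line (0 in VCaP without siControl DHT array A). That 25% is near the share of all genes, 25.4% in VCaP and 22.3% in LNCaP. AURKA, the centrosomal Aurora kinase, fell in VCaP, changing by -0.22 ± 0.06 (0.017) in siControl and -0.24 ± 0.06 (0.0117) in siERG cells, and read -0.01 and -0.04 in LNCaP. The siControl call was lost without siControl EtOH array C (0.0679) or siControl DHT array A. AURKB, the kinase of the chromosomal passenger complex, passed only in LNCaP shETV1 cells, at -0.18 ± 0.05 (0.0211). NEK2, a centrosome kinase, fell in LNCaP, changing by -0.16 ± 0.04 (0.00984) in shControl and -0.14 ± 0.04 (0.0195) in shETV1 cells.

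PLK1 (Polo-like kinase 1) was dim, and with HJURP and KIF20A it was 1 of 3 members that passed as risen with DHT in LNCaP shETV1 cells and did not pass in shControl cells. Its intensity was 54.58, 56.98 and 62.29 in shETV1 EtOH and 102.6, 74.64 and 98.9 in shETV1 DHT. In shControl cells it was 89.09, 71.87 and 80.68 with EtOH and 75.08, 80.07 and 85.79 with DHT. The 3 shETV1 EtOH arrays lay below all others in this line. The DHT change was 0.54 ± 0.10 (0.00153) in shETV1 and 0.00 ± 0.10 (0.995; 95% interval -0.23 to 0.22) in shControl cells. The difference between those responses, 0.54 ± 0.14, had an unadjusted p of 0.00339 and did not pass after adjustment (0.304).

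Of the 5 spindle checkpoint genes 4 fell in VCaP siControl cells, and 2, TTK and MAD2L1, without siControl DHT array A. With all arrays, 25.4% of all genes fell. TTK, the checkpoint kinase MPS1, gave intensities of 667.1, 613.7 and 636.2 with EtOH and 388.2, 478.7 and 436.5 with DHT in siControl cells. With siERG they were 641, 611.6 and 631.1, and then 393.5, 407.4 and 452.6. All 6 DHT arrays lay below all 6 EtOH arrays. The changes were -0.54 ± 0.08 (0.000163) and -0.57 ± 0.08 (0.000115). In LNCaP the shControl arrays read 337.2, 314.2 and 316.5 with EtOH and 326, 314.9 and 307.3 with DHT, a change of -0.03 with a 95% interval of -0.14 to 0.08.

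MAD2L1, the checkpoint protein that binds CDC20, followed the same order. Its siControl intensities were 2412, 2267 and 2391 with EtOH and 1632, 1988 and 1795 with DHT. The VCaP changes were -0.39 ± 0.06 (0.000577) and -0.41 ± 0.06 (0.000349), without overlap between the groups. LNCaP shControl cells gave -0.07 (0.469), with a 95% interval of -0.21 to 0.08. With the GAPDH ratio as a covariate the siERG call was lost (0.0931).

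BUB1B fell in all 4 DHT comparisons. In LNCaP shControl cells it read 1679, 1574 and 1598 with EtOH and 1334, 1290 and 1339 with DHT, and in shETV1 cells 1517, 1451 and 1442, and then 1244, 1191 and 1328. The groups did not overlap. The LNCaP changes were -0.29 ± 0.05 (0.000631) and -0.23 ± 0.05 (0.00326). In VCaP the siControl arrays read 1620, 1530 and 1665 with EtOH and 1198, 1453 and 1359 with DHT, and the changes were -0.26 ± 0.08 (0.0158) in siControl and -0.27 ± 0.08 (0.0142) in siERG cells. The siControl call was also lost without siControl EtOH array C (0.0554).

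BUB1, which recruits checkpoint proteins to kinetochores, fell in control cells of both lines, by -0.26 ± 0.09 (0.0325) in VCaP and -0.18 ± 0.06 (0.0239) in LNCaP. In siERG and shETV1 cells it read -0.23 (0.0581) and -0.15 (0.0559). The VCaP call was lost without any of siControl EtOH A (0.106) or C (0.0785) and siControl DHT A or C (0.0938). The LNCaP call was lost without shControl EtOH A (0.0753) or B (0.059) or shControl DHT B (0.0824). BUB3, its partner, read from -0.07 to -0.02 and passed in none. Its other bright probe sets disagree in VCaP siControl cells, at -0.024, -0.198 and -0.213.

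Of the 3 anaphase genes 0 passed in VCaP siControl cells and 1 fell in LNCaP shControl cells, where 25.4% and 22.3% of all genes fell. A difference from those shares was not tested. CDC20, the activator of the anaphase-promoting complex, and UBE2C, its ubiquitin-conjugating enzyme, passed in none of the 4 DHT comparisons. CDC20 read -0.14 ± 0.08 (0.173) in VCaP siControl and -0.08 ± 0.05 (0.277) in LNCaP shControl cells, and UBE2C -0.13 ± 0.09 (0.272) and -0.09 ± 0.05 (0.131). PTTG1 (securin) fell in LNCaP shControl cells, changing by -0.18 ± 0.05 (0.0204) and read -0.24 ± 0.10 (0.0768) in VCaP siControl cells.

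The Ndc80 complex links kinetochore and microtubule. Its member SPC24 had the largest fall of any member in VCaP siControl cells. Its intensity was 421.7, 385 and 380.5 with EtOH and 231.5, 270 and 270.1 with DHT. With siERG it was 389.8, 323.3 and 504.5, a wide spread, and then 261.1, 289.7 and 290.7. For LNCaP shControl cells it was 468.9, 459 and 460.8, and then 401.6, 376.1 and 380.4. No DHT array reached an EtOH array of its own comparison. The changes were -0.59 ± 0.13 (0.00339), -0.49 ± 0.13 (0.0105) and -0.25 ± 0.06 (0.00532), and in shETV1 cells -0.16 ± 0.06 (0.056). SPC24's other probe set is at background, and averaging it in ended the call in VCaP siControl (0.0991), VCaP siERG (0.0984) and LNCaP shControl cells (0.0618).

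All 4 subunits fell in VCaP siERG cells: NDC80, changing by -0.23 ± 0.06 (0.0108), NUF2, changing by -0.26 ± 0.08 (0.0197) and SPC25, changing by -0.22 ± 0.08 (0.0433) beside SPC24. The share of all genes that fell there was 25.2%. SPC25 was lost without any of 6 of the 12 arrays (adjusted p up to 0.13) and under 5 of 9 other settings, and NUF2 without siERG EtOH A (0.0569) or C (0.0594) or siERG DHT A (0.0509). Without siERG EtOH array C, 2 of the 4 subunits passed. With the GAPDH ratio as covariate none of the 4 passed, at adjusted p-values of 0.233 for NDC80, 0.376 for NUF2, 0.753 for SPC24 and 0.41 for SPC25. In VCaP siControl cells SPC24 alone passed, and NDC80 read -0.16 ± 0.06 (0.0617). NUF2 fell in LNCaP shControl cells, where its intensity was 438.9, 402.8 and 437.6 with EtOH and 361.5, 364 and 361.8 with DHT, a change of -0.22 ± 0.05 (0.00232). In shETV1 cells it was 367.6, 387.7 and 370.9, and then 393.1, 379.9 and 363.7, overlapping groups with a change of 0.01. The difference between these responses was 0.24 ± 0.06, with an unadjusted p of 0.00401 and an adjusted p of 0.314.

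Centromere genes moved in opposite directions. HJURP, the chaperone that deposits CENPA, fell in VCaP. Its siControl intensities were 632.8, 571.6 and 628.2 with EtOH and 441.4, 464.3 and 508.1 with DHT, and with siERG 621.3, 636.2 and 630.4, and then 454.2, 437.5 and 429.2. The groups were apart, and the changes were -0.36 ± 0.06 (0.000435) and -0.50 ± 0.06 (4.57e-05). In LNCaP shETV1 cells it rose, from 238, 239.3 and 282.5 to 336.5, 316.2 and 307, or 0.32 ± 0.08 (0.00696). In shControl cells it read 247.4, 290 and 273.6, and then 299.4, 285.3 and 266.6, overlapping groups with a change of 0.07 (95% interval -0.10 to 0.24).

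CENPA, the centromeric histone, passed in none, and read -0.12 ± 0.11 (0.37) in VCaP siControl and 0.11 ± 0.10 (0.399) in LNCaP shControl cells. CENPE, a kinetochore motor, fell only in LNCaP shControl cells, by -0.15 ± 0.05 (0.0402). CENPF, a large kinetochore protein, was at the threshold in VCaP siControl cells (-0.22 ± 0.08, adjusted p = 0.05 after rounding), a call lost without any of 10 of the 12 VCaP arrays, with adjusted p up to 0.181. CENPK fell in VCaP siERG cells (-0.33 ± 0.10, 0.0195) and in LNCaP shControl cells (-0.22 ± 0.06, 0.018).

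CENPN departed from every other member. With EtOH its intensity was 2111, 1763 and 2158 in VCaP siControl and 2062, 1883 and 2069 in siERG cells. With DHT it was 3235, 3385 and 3366, and 3282, 3265 and 2924. In LNCaP it was 1521, 1409 and 1487 in shControl EtOH and 1420, 1508 and 1492 in shETV1 EtOH, and with DHT 6168, 6260 and 6252, and 5657, 5601 and 5580. In each line every DHT array lay far above every EtOH array, and the replicates were tight. The change was 0.73 ± 0.08 (2.92e-05) in siControl and 0.65 ± 0.08 (6.57e-05) in siERG cells, and 2.07 ± 0.04 (5.4e-11) in shControl and 1.92 ± 0.04 (8.93e-11) in shETV1 cells.

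CENPN's other 3 probe sets rose as well, by 1.43, 1.88 and 1.18 in VCaP siControl and 3.39, 3.48 and 1.37 in LNCaP shControl cells, so the size of the rise depends on the probe set, and each rose more in LNCaP than in VCaP control cells. The siERG call was lost with the GAPDH ratio as covariate (0.0551). Leaving out any array changed no CENPN call in the 4 DHT comparisons. CENPN passed with neither knockdown. With DHT it read -0.078 with siERG and -0.149 with shETV1, where every shETV1 array lay below every shControl array. CENPN's other bright probe sets read -0.352 and -0.308 with shETV1 there, and -0.001 and -0.055 with siERG. Under EtOH they read -0.146 and 0.038 with shETV1, and 0.076 and 0.315 with siERG. At the probe set used, the change under EtOH was 0.00 ± 0.08 in VCaP and 0.00 ± 0.04 in LNCaP, with 95% intervals of -0.18 to 0.18 and -0.09 to 0.09.

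CENPN's neighbours on chromosome 16 also moved with DHT; they were chosen after the CENPN values were seen. CMC2, next to it on its upstream side, rose by 0.92, 0.81, 1.0 and 0.93 in VCaP siControl, VCaP siERG, LNCaP shControl and LNCaP shETV1 cells. CDYL2, further upstream, rose by 0.77, 0.72, 1.52 and 1.48. ATMIN, the next gene downstream, rose in LNCaP only by the test, by 0.85 and 0.76, and read -0.10 and -0.02 in VCaP. C16orf46, beyond it, read 0.33 and -0.04 in VCaP and rose in LNCaP by 0.42 and 0.53. GCSH, further downstream, fell in VCaP, changing by -0.47 and -0.42, read 0.07 (0.184) in LNCaP shControl cells and rose by 0.17 (0.00574) in shETV1 cells. An antisense gene, CENPN-AS1, overlaps CENPN, and the strand of the probes was not checked.

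**Figure D3:**
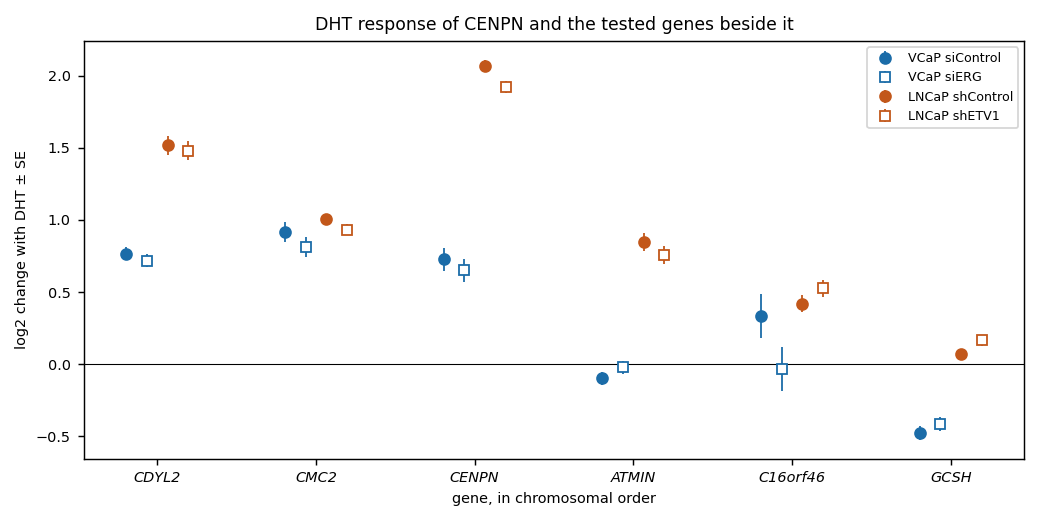
Change with DHT (y axis, log2 difference, bars ± SE) of CENPN and the tested neighbouring genes in their order along chromosome 16 (x axis), with a point for each of the 4 DHT comparisons. CENPN rose by 2.07 in LNCaP shControl and 0.73 in VCaP siControl cells, CMC2 and CDYL2 rose in all 4, and GCSH fell in VCaP and rose in LNCaP shETV1 cells.

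Of the 7 mitotic kinesins 0 passed in VCaP siControl cells, where 25.4% of all genes fell. At an unadjusted p under 0.05 (limma) there was 1, against 51.4% of all genes. In LNCaP shControl cells 2 of 7 fell, or 28.6%, against 22.3% of all genes. KIF11, the motor that pushes spindle poles apart, fell in LNCaP, changing by -0.19 ± 0.06 (0.0268) and -0.18 ± 0.06 (0.0416). In VCaP it passed in siERG cells only, at -0.33 ± 0.12 (0.0479), and read -0.24 ± 0.12 (0.139) in siControl cells. KIF2C, a microtubule depolymerase, fell in LNCaP, changing by -0.16 (0.0331) and -0.22 (0.0073). KIF20A, a kinesin of cytokinesis, rose in LNCaP shETV1 cells by 0.19 ± 0.07 (0.0423), from 1203, 1309 and 1152 to 1447, 1294 and 1444, groups that overlap. That call was lost without any of 8 of the 12 arrays.

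TPX2, which activates AURKA on spindle microtubules, fell in all 4 comparisons. Its siControl intensities in VCaP were 930.2, 779.8 and 876.5 with EtOH and 665.1, 701.8 and 754.8 with DHT. In LNCaP shETV1 cells they were 667.8, 742.5 and 706.8, and then 616.6, 590 and 629.7. The groups did not overlap in these comparisons. The changes were -0.28 ± 0.09 (0.0281), -0.26 ± 0.09 (0.038), -0.16 ± 0.05 (0.0367) and -0.20 ± 0.05 (0.0131). Leaving out single arrays ended the call in each comparison (4, 5, 7 and 1 of the 12 arrays), with adjusted p up to 0.105, 0.136, 0.13 and 0.0568, the last only without shETV1 EtOH array B. In VCaP siControl cells this held for siControl EtOH A and C and siControl DHT A and B.

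PRC1, which bundles the central spindle, fell in VCaP, changing by -0.22 (0.0181) and -0.19 (0.0366) and in LNCaP shControl cells, changing by -0.16 (0.0313). DLGAP5, a spindle assembly factor, fell only in VCaP siERG cells, by -0.23 ± 0.08 (0.0358). ECT2, the cytokinesis exchange factor, fell in VCaP, changing by -0.14 ± 0.04 (0.0121) and -0.22 ± 0.04 (0.000705). BIRC5 (survivin) fell only in LNCaP shControl cells, by -0.16 ± 0.05 (0.0333). Its probe sets disagree in VCaP siControl cells, where the probe set used read 0.02 and the next brightest -0.24.

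Of the genes for chromosome structure, TOP2A, the topoisomerase that untangles sister chromatids, fell in VCaP. Its intensities were 2191, 2089 and 2000 with EtOH and 1606, 1850 and 1747 with DHT in siControl cells. Those of siERG cells were 2223, 2256 and 2288, and then 1748, 1889 and 1920. The groups did not overlap. The changes were -0.27 ± 0.06 (0.00375) and -0.28 ± 0.06 (0.00287). Its change in LNCaP shControl cells was -0.01, with a 95% interval of -0.11 to 0.09. TOP2A's other bright probe set, with a mean intensity of 1226, read -0.127 in VCaP siControl and -0.102 in LNCaP shControl cells. In siERG and shETV1 cells it read -0.444 and -0.107. The condensin subunit SMC4 fell in VCaP, changing by -0.18 (0.045) and -0.20 (0.0299). SMC4's other probe sets disagree there, at -0.059 and -0.104 (mean intensity 641.9) and at 0.328 and 0.108 (mean intensity 95.25). NCAPH, another condensin subunit, had the largest called fall in LNCaP shETV1 cells, at -0.251. That call did not stay whichever array was left out. In VCaP siControl, VCaP siERG and LNCaP shControl cells NCAPH read -0.325, -0.301 and -0.213 and did not pass.

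MKI67, whose protein Ki-67 is the common proliferation marker, passed in none of the 4 DHT comparisons. Its intensity was 322.8, 317.2 and 273.4 in VCaP siControl EtOH and 349.8, 291.7 and 312.4 with DHT. In LNCaP shControl cells it was 235.5, 226.7 and 247.4, and then 238, 205.5 and 201.5. The groups overlapped, and the changes were 0.06 (95% interval -0.15 to 0.27) and -0.13 (-0.29 to 0.03). MKI67's other probe sets read from -0.453 to -0.163 in VCaP siControl cells, on the other side of 0.

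The transcription factors of the program passed in none of the 4 (FOXM1) or in 1 (MYBL2). FOXM1 read -0.13 ± 0.12 (95% interval -0.38 to 0.13) in VCaP siControl and -0.02 ± 0.08 (-0.19 to 0.15) in LNCaP shControl cells. MYBL2 fell in LNCaP shETV1 cells, from 256.1, 262.3 and 247.5 to 216.4, 207.4 and 225.4, or -0.22 ± 0.04 (0.00186). In shControl cells it read -0.05 ± 0.04 (0.432).

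**Figure D4:**
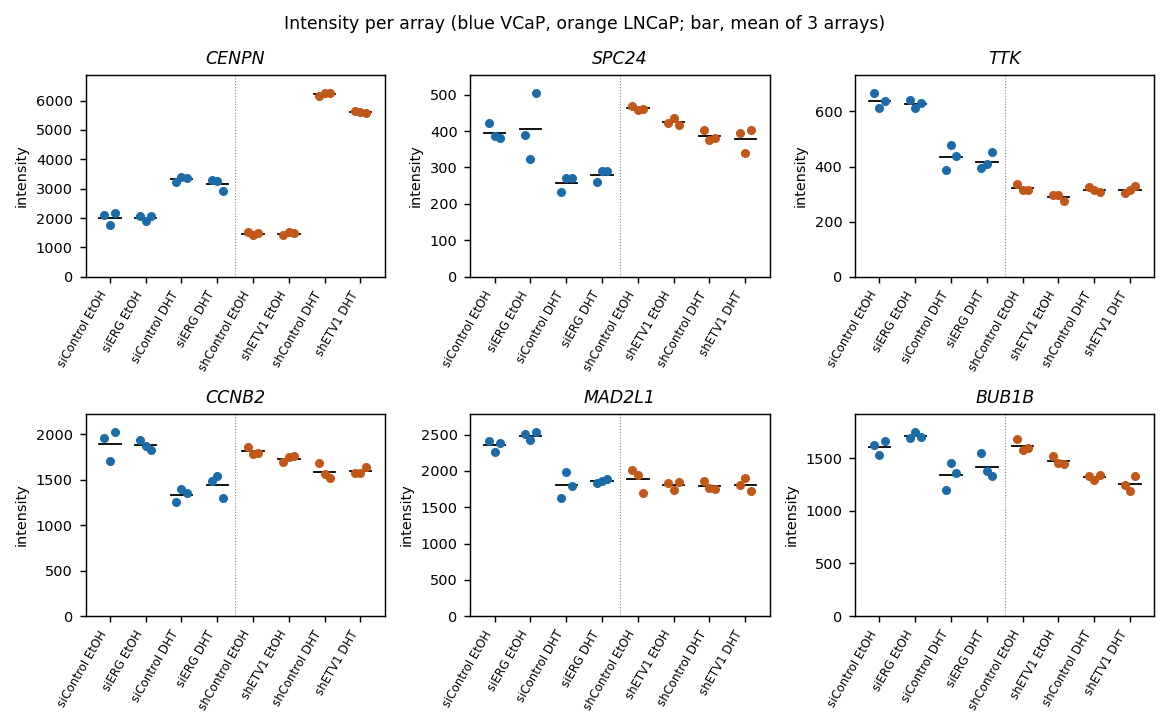
Intensity on each of the 24 arrays (points; linear y axis from 0) for CENPN, SPC24, TTK, CCNB2, MAD2L1 and BUB1B in the 8 groups (x axis); short lines are means of 3 arrays. CENPN is higher in every DHT array of its line, TTK and MAD2L1 are lower with DHT in VCaP, and BUB1B is lower with DHT in VCaP and LNCaP.

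By promoter letters, members with CHR letters fell in 11 of 27 cases in VCaP siControl cells, and those without in 1 of 12. Without siControl DHT array A these were 5 and 1. In siERG cells it was 17 of 27 and 3 of 12, in LNCaP shControl cells 7 of 27 and 6 of 12, and in shETV1 cells 2 of 27 and 5 of 12. Of all genes, 25.4%, 25.2%, 22.3% and 19.0% fell in VCaP siControl, VCaP siERG, LNCaP shControl and LNCaP shETV1 cells. The median changes were -0.159 and -0.175 in VCaP siControl and -0.103 and -0.161 in LNCaP shControl cells. The letters thus showed no common order across the lines, and the difference was not tested.

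The members called as fallen were shared in part between the 2 lines. A missing call does not show that a member did not fall. ECT2 read -0.14 in control cells of each line and passed in VCaP only. The overlap that unrelated lists of this size would have was not computed. Of the 15 that fell in control cells of each, 6 were shared, 40% of each list: CCNB2, BUB1, BUB1B, SPC24, TPX2 and PRC1. Without siControl DHT array A 2 were shared, CCNB2 and SPC24, 28.6% of the VCaP list and 13.3% of the LNCaP list. In VCaP, 13 members fell in siControl and siERG cells alike, 86.7% of the first list and 56.5% of the second, and without that array 7 did, 28.0% of the siERG list. In LNCaP 5 members did (NEK2, BUB1B, KIF11, KIF2C and TPX2), 33.3% and 62.5%. Over the 46 members other than CENPN, Pearson's r between the DHT changes of VCaP siControl and LNCaP shControl cells was 0.167. It is a correlation across genes of the same arrays, given as a description. With CENPN it was 0.684, so that value rests on 1 gene.

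The test of the difference in DHT response between the lines (LNCaP minus VCaP, in a model over all 24 arrays) passed for 8 members in control cells, where 31.9% of all genes passed. All 8 lay on the positive side, as did 17.6% of all genes. TTK (0.52 ± 0.09, 0.000177), HJURP (0.43 ± 0.10, 0.00199), MAD2L1 (0.32 ± 0.09, 0.0115), CCNB2 (0.31 ± 0.09, 0.0144), CDK1 (0.30 ± 0.11, 0.0487) and TOP2A (0.26 ± 0.07, 0.0105) had fallen in VCaP and fell less or not in LNCaP. For TOP2A this holds for the probe set used, as its other bright probe set read -0.127 in VCaP and -0.102 in LNCaP. CENPN rose more in LNCaP, by 1.34 ± 0.09 (5.72e-10). KIF20A (0.30 ± 0.11, 0.0434) had not passed in control cells of either line. In siERG and shETV1 cells 11 members passed, all on the positive side, against 31.6% of all genes, 18.4% on that side. TTK, MAD2L1, HJURP and CENPN passed here and in control cells under each of the 8 other settings that apply and with each array left out.

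Silencing ERG gave few calls among the members. In VCaP cells with EtOH 1 member passed, DLGAP5, where 11.2% of all genes passed. Its intensity was 1011, 957.8 and 878.9 in siControl and 1094, 1208 and 1243 in siERG cells. The groups did not overlap, and the change was 0.31 ± 0.08 (95% interval 0.14 to 0.49, adjusted p = 0.031). The call was lost without siControl EtOH B (0.0741) or C (0.103), or siERG EtOH B (0.0986) or C (0.108). With DHT DLGAP5 read 0.24 ± 0.08 (0.0909).

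The members nonetheless leaned to the positive side with EtOH. Of the 47, 40 lay above 0, with a median of 0.114, against 52.2% of all genes and a median of 0.008. At an unadjusted p under 0.05 there were 11 members, and 25.9% of all genes. In 17 members every siERG array lay above every siControl array, and in 1 every array lay below, where 17.7% and 17.4% of all genes did so. SPC25 read 0.26 ± 0.08 (0.067), CCNB1 0.18 ± 0.06 (0.0835), BIRC5 0.23 ± 0.07 (0.0748) and CDC20 0.22 ± 0.08 (0.109). None of these passed. The siControl EtOH arrays were themselves spread, with member medians of 0.103, -0.043 and 0.038 from the line's mean in arrays A to C. Array B was lowest of them for 34 members. Under median centring the member median was 0.062. Centring moved the split of all genes from 690 risen and 754 fallen to 393 and 1167. The GAPDH 3′ to 5′ ratio was 1.067 to 1.114 in siERG EtOH arrays and 1.039 to 1.064 in siControl EtOH arrays. Its part was not tested, and with that ratio as a covariate no member passed.

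With DHT, silencing of ERG gave 2 calls, where 8.97% of all genes passed. CDC20 read 1082, 1128 and 1263 in siControl and 1507, 1555 and 1347 in siERG cells, without overlap, a change of 0.34 ± 0.08 (95% interval 0.17 to 0.52, 0.0236). It was lost without siControl DHT A (0.0897) or B (0.0742), or siERG DHT A (0.0725) or B (0.0887). ECT2 fell, changing by -0.14 ± 0.04 (0.0411), a call lost without 11 of the 12 arrays (adjusted p up to 0.132). The member median was 0.086, and 0.010 without siControl DHT array A.

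**Figure D5:**
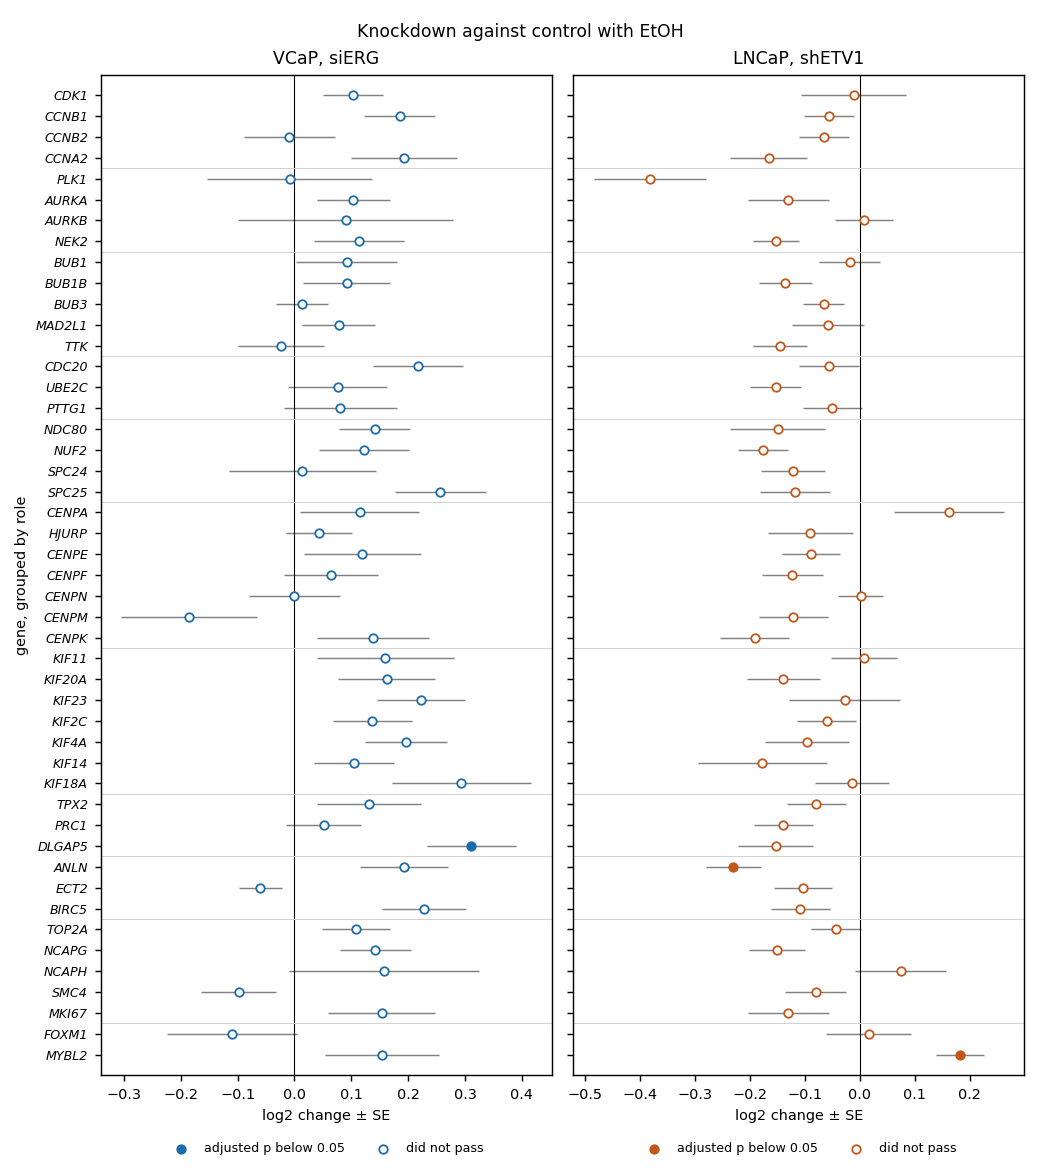
Change with silencing in EtOH-treated cells for each of the 47 members (y axis, ordered by role with grey lines between roles) as a log2 difference on the x axis, siERG minus siControl in VCaP on the left and shETV1 minus shControl in LNCaP on the right; bars are ± SE, filled points have an adjusted p under 0.05 and the panels differ in x scale. In VCaP 40 of 47 points lie above 0 and in LNCaP 40 of 47 lie below 0, while only DLGAP5, ANLN and MYBL2 are filled.

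Silencing ETV1 gave 2 calls in LNCaP cells with EtOH, where 4.20% of all genes passed. ANLN (anillin, a scaffold of the cytokinetic ring) read 861.3, 779.4 and 850.4 in shControl and 718.2, 712.8 and 684.2 in shETV1 cells, a change of -0.23 ± 0.05 (95% interval -0.34 to -0.12, 0.0304). MYBL2 read 225.3, 224.1 and 219.7, and 256.1, 262.3 and 247.5, a change of 0.18 ± 0.04 (0.09 to 0.28, 0.0434). In neither did the groups overlap. The ANLN call was lost without shControl EtOH A (0.12) or C (0.0985), or shETV1 EtOH A (0.0709), B (0.0792) or C (0.111). The MYBL2 call was lost without any of 9 of the 12 arrays, with adjusted p up to 0.143. PLK1 read -0.38 ± 0.10 (0.0642).

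Here the members leaned to the negative side, with 40 of 47 below 0 and a median of -0.097 against 0.006 over all genes. Of all genes 47.7% lay below 0. The member medians of shControl EtOH arrays A to C were 0.139, 0.073 and 0.066 from the line's mean, and array A was highest for 29 members. Those of shETV1 EtOH arrays were -0.026, 0.008 and 0.010. At an unadjusted p under 0.05 there were 14 members, and 18.0% of all genes. In 20 members every shETV1 array lay below every shControl array, and in 1 above, against 13.3% and 10.8% of all genes. With DHT, 0 members passed in limma (7 at an unadjusted p under 0.05, as 20.1% of all genes), where 5.19% of all genes passed, and the median was -0.062. Centring each array on its median moved the split of all genes with DHT from 344 risen and 321 fallen to 224 and 484, and quantile normalization to 218 and 429.

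For CDK1, a core member, the change with each knockdown is given with its interval at the probe set used. Its change with siERG was 0.10 (95% interval -0.01 to 0.22) with EtOH and 0.03 (-0.09 to 0.14) with DHT. With shETV1 it was -0.01 (-0.22 to 0.20) and 0.04 (-0.17 to 0.26). Under EtOH, CDK1's other bright probe sets read 0.155 and 0.144 with siERG, and -0.143 and -0.173 with shETV1. The intervals are before adjustment over genes and hold for 1 probe set each. For MKI67 the intervals with EtOH were -0.05 to 0.36 in VCaP and -0.29 to 0.03 in LNCaP, and for FOXM1 -0.36 to 0.14 and -0.15 to 0.19.

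The effects of silencing differed between the lines for 6 members with EtOH (9.56% of all genes, 5.40% in this direction), all lower in LNCaP: DLGAP5 (-0.46 ± 0.11, 0.00808), ANLN (-0.42 ± 0.09, 0.00614), SPC25 (-0.37 ± 0.10, 0.0278), BIRC5 (-0.34 ± 0.09, 0.0254), NUF2 (-0.30, 0.0453) and NCAPG (-0.29, 0.0254). The count fell to 3 without siControl EtOH B, siERG EtOH C, shControl EtOH A, or shETV1 EtOH B or C, and to 0 once the GAPDH ratio entered the model. For NCAPG the difference holds at the probe set used, which read 0.142 with siERG and -0.151 with shETV1. Its other probe set, with a mean intensity of 425, read 0.123 and 0.015. Under DHT 3 members differed (7.50% of all genes, 3.22% in this direction): CDC20 (-0.38 ± 0.10, 0.0209), DLGAP5 (-0.37 ± 0.11, 0.0367) and KIF2C (-0.32 ± 0.09, 0.032). That count fell to 0 without siControl DHT A or siERG DHT B.

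Whether silencing altered the response to DHT was tested as an interaction in each line. In limma 0 of 47 members passed in VCaP (0 at an unadjusted p under 0.05, against 10.9% of all genes), where 0.288% of all genes passed. In LNCaP 0 passed (6 at an unadjusted p under 0.05, against 7.50% of all genes), where 0.101% of all genes passed. The median half-width of a member's 95% interval was 0.248 in VCaP and 0.173 in LNCaP, before any adjustment over genes.

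Further mitosis genes, 66 of 68 listed and tested, gave 4 risen and 18 fallen with DHT in VCaP siControl cells and 6 and 17 in LNCaP shControl cells. The falls were 27.3% and 25.8% of the list, near the 25.4% and 22.3% of all genes. NCAPD3, a condensin II subunit, rose in all 4 DHT comparisons, by 1.78, 1.56, 3.35 and 3.08. The chromokinesin KIF22 rose by 0.26, 0.32, 1.80 and 1.60. WEE1, the kinase that holds CDK1 inactive, fell, changing by -0.90, -0.70, -0.45 and -0.34. LIN9, a MuvB subunit, fell, changing by -0.60 and -0.62 in VCaP. DNA replication genes, 40 tested, gave 4 risen and 20 fallen in VCaP siControl cells, and 8 risen and 5 fallen in LNCaP shControl cells. The falls were 50% and 12.5% of the list, and the rises 10% and 20%, where 19.6% and 18.6% of all genes rose. MCM2 and MCM5 of the replicative helicase fell, changing by -0.98 and -0.92 in VCaP siControl cells. In LNCaP shControl cells they read -0.20 (0.0639) and 0.04 (0.723), and CDC6, which loads the helicase, rose by 0.75. Of 14 genes that brake the cell cycle, 3 rose and 6 fell in VCaP siControl cells and 2 rose and 5 fell in LNCaP shControl cells. The falls were 42.9% and 35.7% of these 14. CDKN1A, the inhibitor p21, rose in VCaP by 0.38 and 0.56 and fell in LNCaP, changing by -0.38 and -0.40.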

How the data were processed

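The deposited value table holds 1 linear intensity per probe set and array, used here as the authors deposited it. For the step from scan to intensity (background correction, summary of probes, target value) the method is not given in the sources used. Of 54675 probe sets, 42898 name a gene in the platform annotation and 1801 of these name several. The remaining 41097 were used, for 19775 genes. Values were set to log2(intensity + 16), so a fold change is on that scale and understates the change of dim genes. A gene was tested in a line if it lay above the array's median in at least 3 of 12 arrays. Limma 3.58.1 in R 4.3.3 was fitted per line over 4 groups, and over all 24 arrays for differences between lines, with Benjamini-Hochberg adjustment over all genes tested, and was tested on simulated data. Each line's number of arrays limits the precision. An exact permutation test of 3 against 3 arrays cannot go below 0.1, so none was used.

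The members and lists were chosen with earlier results of these data known. In each comparison, up to 5 called members with the largest change in each direction were named, and up to 3 for differences between lines. A core of cyclins, kinases, kinetochore, motor and proliferation genes was always named, and other members only to complete a role. For LNCaP control arrays a label field reads siControl, while the titles read shControl, which was followed. Letters of motifs were searched in RefSeq promoters (GRCh38.p14). Alternatives were other probe set rules, no filter, quantile normalization, centring on the array's median, a pseudocount of 64, the replicate letter as a block, the GAPDH and ACTB 3′ to 5′ ratios as covariates, a fit of only the 2 groups compared, and leaving out each of the 24 arrays.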

Additional observations from a re-analysis of the deposited data

Results flagged for a closer look

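The results below stand out because the same contrast gave different values in the 2 lines by a test of the difference itself, in a limma model over all 24 arrays with adjustment over all genes tested. Each value is the LNCaP change minus the VCaP change on the log2 scale.

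For the DHT response of control cells the difference was 0.30 for CDK1, 0.31 for CCNB2, 0.32 for MAD2L1, 0.52 for TTK, 0.43 for HJURP, 1.34 for CENPN, 0.30 for KIF20A and 0.26 for TOP2A. Without VCaP siControl DHT array A, 6 of these 8 remained, and those for CDK1 and KIF20A were lost. The TOP2A value is that of the probe set used, and its other bright probe set read -0.127 in VCaP and -0.102 in LNCaP control cells. For the DHT response of silenced cells it was 0.43 for CDK1, 0.23 for CCNB1, 0.26 for CCNB2, 0.51 for PLK1, 0.42 for MAD2L1, 0.69 for TTK, 0.82 for HJURP, 1.27 for CENPN, 0.39 for KIF20A and 0.22 for TOP2A. HJURP fell in VCaP siERG cells and rose in LNCaP shETV1 cells.

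For the effect of silencing with EtOH the difference was -0.37 for SPC25, -0.46 for DLGAP5, -0.42 for ANLN and -0.34 for BIRC5. With DHT it was -0.38 for CDC20, -0.32 for KIF2C and -0.37 for DLGAP5. Of these 7 differences, those of DLGAP5 and ANLN with EtOH stayed past the threshold whichever array was left out, and with the GAPDH 3′ to 5′ ratio as a covariate their adjusted p was 0.488 and 0.399. The silenced gene, the kind of RNA interference and the line cannot be told apart in these differences.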

How the results depend on the processing

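Each count of members called was recomputed under 9 other settings (8 for interactions and differences between lines, where no fit of 2 groups can be made) and with each of the 24 arrays left out. Over the members named in the text, 8078 values kept their direction and side of the threshold, 356 lost the call, 63 gained it and 3 called values changed sign. The 3 were ECT2 with siERG and DHT (0.0763), CCNB2 with DHT in siERG cells (0.0917) and the CCNB2 difference between lines in silenced cells (-0.0989), all when the probe sets of a gene were averaged.

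With averaged probe sets the count went from 1 to 2 for siERG with EtOH, from 2 to 1 for siERG with DHT, from 16 to 10 for DHT in VCaP siControl cells, from 2 to 1 for shETV1 with EtOH and from 16 to 10 for DHT in LNCaP shControl cells. Without the intensity filter it was 0, 0 and 0 for siERG with EtOH, siERG with DHT and shETV1 with EtOH, 8 for DHT in shControl cells, and 2, 1 and 6 for the differences between lines in silencing with EtOH (6), in silencing with DHT (3) and in the DHT response of silenced cells (11). Quantile normalization gave 4 for siERG with EtOH, 19 for DHT in shETV1 cells (12), 11 for the difference in silencing with EtOH, and 5 and 7 for those in the DHT response of control (8) and silenced cells. Centring gave 12 for DHT in siERG cells (24), 2 for shETV1 with DHT (0), 7 for DHT in shControl cells and 7 for the difference in DHT response of silenced cells. A pseudocount of 64 gave 1 for shETV1 with EtOH.

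With the GAPDH ratio as a covariate the counts were 0 for siERG with EtOH and with DHT, 10 and 5 for DHT in siControl and siERG cells, 0 for shETV1 with EtOH, 7 for DHT in shControl cells, and 0, 5 and 6 for the differences in silencing with EtOH and in DHT response of control and silenced cells. With the ACTB ratio they were 0 for siERG with DHT, 1 for shETV1 with EtOH, 7 for DHT in shControl cells and 1 for the difference in silencing with DHT. A fit of only the 2 groups gave 2, 0, 0 and 10 for siERG with EtOH, siERG with DHT, shETV1 with EtOH and DHT in shControl cells. The cause of these moves was not tested, except that a fit of 2 groups has fewer arrays.

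The replicate letters gave no clear pairing of the arrays: of 24 pairs of deviations, 3 had a correlation over 0.1, and in 0 of 8 comparisons did all 3. For DHT in VCaP siERG cells each letter correlated best with its own letter, at 0.107, 0.030 and 0.112 for A to C. Weak correlations cannot show that the arrays were unpaired. With the replicate block, the pairing left 0 calls for siERG with DHT, 0 for shETV1 with EtOH and 3 for the difference in silencing with EtOH, and no other count moved by over 1.5 times.

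Leaving out 1 array gave counts of 0 to 2 for siERG with EtOH, 0 to 1 for siERG with DHT, 8 to 21 and 15 to 26 for DHT in siControl and siERG cells, 0 to 4 and 0 to 1 for shETV1 with EtOH and DHT, 7 to 17 and 8 to 13 for DHT in shControl and shETV1 cells, and 0 for each interaction. For the differences between lines it gave 3 to 9 and 0 to 4 in silencing with EtOH and DHT, and 6 to 8 and 7 to 12 in the DHT response of control and silenced cells. Without shETV1 DHT B, shETV1 gave 4 with EtOH and 1 with DHT. The last count was 7 without shETV1 EtOH A or B or shETV1 DHT A. The difference in silencing with DHT was 1 without shControl DHT C or shETV1 DHT C.

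Centring moved the all-gene split of the difference in silencing with EtOH from 512 higher and 664 lower to 971 and 448, and that in the DHT response of silenced cells from 2270 and 1624 to 1708 and 2357 (quantile normalization 1951 and 2366, and 1935 and 2411 from 2164 and 1765 in control cells).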
